A study of Mus musculus with 8 samples.

Results

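Expression of 7 gap junction genes, namely Gja1, Gja4, Gja5, Gjb2, Gjb5, Gjb6 and Gjc1, was compared between the limbal rim and the corneal button of the mouse eye by RNA sequencing. The genes were chosen by name as connexins of epithelium, vessels and lens, and all 7 were found among the 23420 rows of the deposited table that name a gene. The tissue came from wild type C57BL/6J mice that were 8 weeks old, and 16 eyes were collected. Limbal rims (the ring of tissue between cornea and sclera) were pooled with each other and corneal buttons (the cornea inside that ring) likewise, so a library is a mixture of animals and of all cell types the dissection took. The labels number 4 samples per tissue, but the deposited means rest on 1 library of the cornea and 1 of the limbus. There was therefore no spread between replicates and no test of the difference between the tissues. The libraries held 26104753 reads (cornea) and 21181617 reads (limbus) on named genes.

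Connexins are membrane proteins that assemble into hexamers, and hexamers of neighbouring cells dock into gap junctions, channels that let ions and small molecules pass from cell to cell. Cells of an epithelium usually combine several connexins. Gja1 is the most widely expressed of them, and Gjb2 and Gjb6 are best known from the skin and the inner ear. Gja4 and Gja5 belong to the endothelium of arteries, and Gjc1 to smooth muscle of vessels and to the heart. The healthy cornea has no vessels, whereas the limbus carries the vessels that supply its edge.

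In these libraries the 7 genes parted by their usual site of expression. The 4 connexins of epithelium (Gja1, Gjb2, Gjb5 and Gjb6) were lower in the limbus, Gja1 by far the most and Gjb2 and Gjb6 by an amount that depended on the scaling, and the 3 vascular connexins (Gja4, Gja5 and Gjc1) were higher there. The vascular genes had few reads. At 2-fold or more, 3 of the 7 were higher in the limbus and 1 was higher in the cornea, where 16.5% and 8.13% of all 15572 genes exceeding 3 reads in either library were on the same sides. The exact 95% interval of the ratio (Clopper-Pearson, covering counting error only) excluded equality for all 7 (for 5 when scaled to total reads, as given below for Gjb2 and Gjb6), which was the case for 34.0% of all genes in favour of the limbus and for 36.5% in favour of the cornea. The median log2 ratio of limbus over cornea was −0.29 for the 7 genes and 0.0137 for all genes. In tissue made of many cell types, fewer cells of a type and less RNA per cell cannot be told apart.

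**Figure D1:**
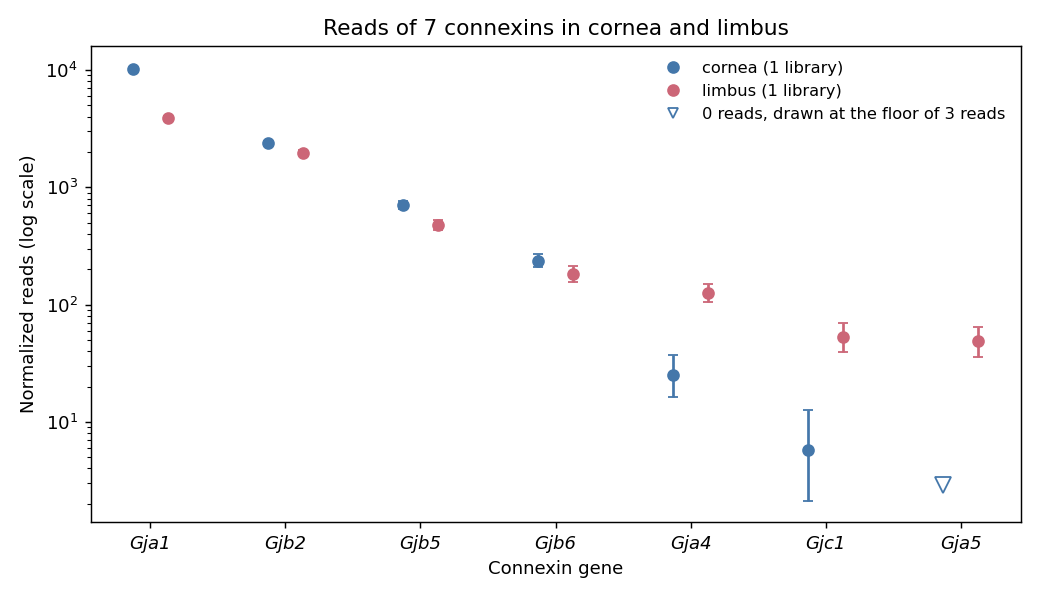
Normalized reads (log scale) of the 7 connexins in the single cornea library (blue) and the single limbus library (red). Bars are exact 95% Poisson intervals and cover counting error only. The 4 epithelial genes on the left lie lower in the limbus and the 3 vascular genes on the right lie higher. Gja5 had 0 reads in the cornea and is drawn there at the floor of 3 reads.

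Gja1 encodes the connexin found in corneal epithelium, keratocytes and corneal endothelium alike. It lies at chr10:56377330-56402513 on the plus strand of GRCm38. Gja1 had 10631 corneal and 3804 limbal reads, which normalize to 10284 and 3932. The level was 2.62-fold higher in the cornea, a log2 ratio of −1.39 with an interval of −1.44 to −1.33. Among genes exceeding 3 reads in each library, 3.89% had a lower ratio.

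Gjb2, at chr14:57098600-57104702 on the minus strand, had 2486 corneal and 1907 limbal reads. Its log2 ratio was −0.29 (−0.37 to −0.20), or 1.22-fold higher in the cornea. Gjb6, at chr14:57123303-57133611 on the same strand, was read 244 times in the cornea against 177 in the limbus, and its log2 ratio was −0.37 (−0.65 to −0.08). The differences of Gjb2 and Gjb6 were small, and both depended on the scaling of the libraries. Scaled to total reads, which moved every log2 ratio up by 0.21, Gjb2 came to −0.08 (−0.17 to 0.01) and Gjb6 to −0.16 (−0.45 to 0.12), and neither interval excluded 0.

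Gjb5, a connexin of stratified epithelia, lies at chr4:127354809-127358181 on the minus strand. It had 728 corneal and 461 limbal reads. The level was 1.48-fold higher in the cornea, with a log2 ratio of −0.56 (−0.73 to −0.39). Under total-read scaling the value was −0.36, still on the corneal side.

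The difference of Gja1 exceeded that of each other epithelial connexin, whatever the scaling, since a ratio of reads between genes of the same library does not depend on it. For each read of Gjb2, the cornea held 4.28 reads of Gja1 and the limbus 1.99, a difference of −1.10 on the log2 scale (−1.20 to −0.998). Against Gjb5 the difference was −0.82 (−1.002 to −0.64), and against Gjb6 it was −1.02 (−1.31 to −0.73). Gjb2 and Gjb6 differed from each other by 0.08 (−0.22 to 0.38), and Gjb5 and Gjb6 by −0.20 (−0.53 to 0.14), so at this depth a difference within either pair was not detectable. Gjb5 lay lower than Gjb2 by a small margin, the difference of Gjb2 over Gjb5 being 0.28 (0.08 to 0.47).

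Gja4, at chr4:127311421-127314039 on the minus strand, had 26 corneal and 122 limbal reads. Normalized levels were 25.2 and 126, 5.01-fold higher in the limbus with a log2 ratio of 2.33 (1.71 to 2.997). It was the only vascular member with more than 6 reads in the cornea.

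Gjc1, at chr11:102799579-102819700 on the minus strand, had 6 corneal and 51 limbal reads. The limbal level was 9.08-fold higher, a log2 ratio of 3.18, and the interval of 1.96 to 4.70 is wide because it rests on those 6 reads. The change of Gjc1 could not be separated from that of Gja4, the difference of Gja4 over Gjc1 being −0.85 (−2.51 to 0.57).

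Gja5 had 0 corneal and 47 limbal reads. With the cornea set to a floor of 3 reads, the lower end of the exact interval of the ratio made the limbal level at least 5.39-fold higher. Gja5 is annotated at chr3:96904693-97077416 on the plus strand, a span that overlaps other genes on the opposite strand, among them Gpr89 and 2 antisense RNAs. Whether the reads were counted by strand is not given in the sources used here, so a part of the 47 reads could belong to these neighbours.

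**Figure D2:**
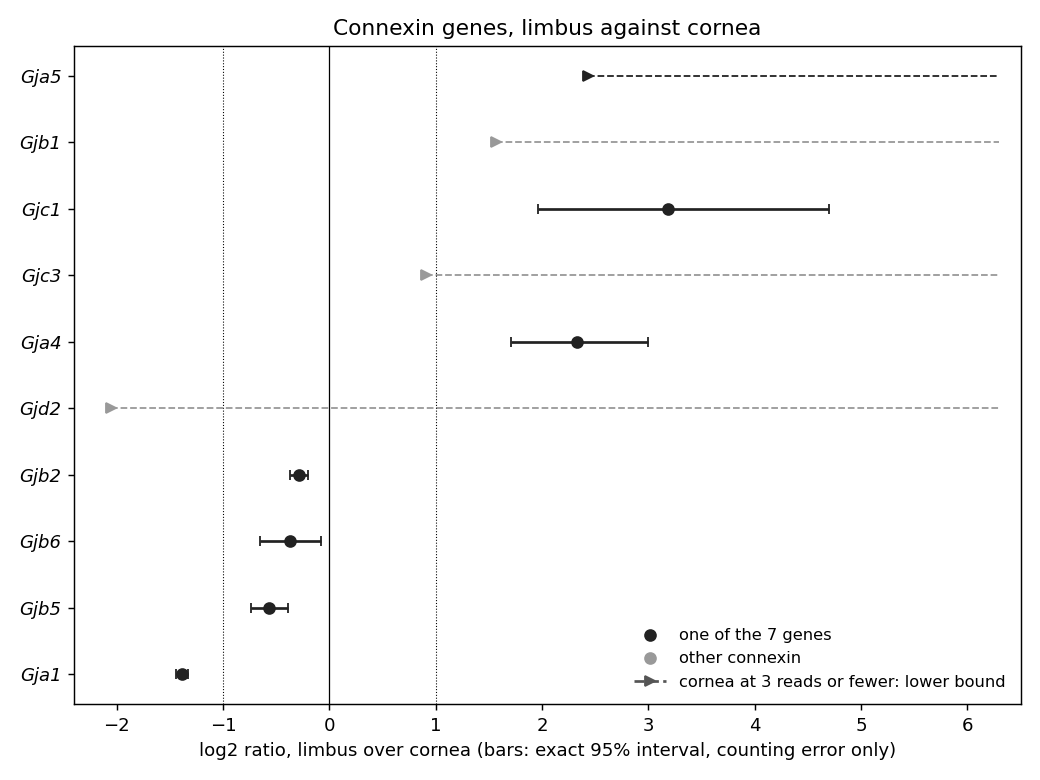
Ratio of limbus over cornea (log2) for the 7 connexins and for Gjb1, Gjc3 and Gjd2, with exact 95% intervals for counting error. The 7 genes are black and other connexins grey, dotted lines mark 2-fold, and dashed lines start at the lower bound of genes with 3 reads or fewer in the cornea. Among the genes drawn with an interval, Gja1 alone lies below the lower dotted line, and Gja4 and Gjc1 lie above the upper one, as do the lower bounds of Gja5 and Gjb1.

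The sequence just before the start of each gene is shown because it sets genes that were higher in the limbus beside genes that were higher in the cornea. Each is the 250 bases before the RefSeq start on GRCm38.p6, 5′ to 3′ on the strand of the gene, and 6 of the 7 genes had an entry (Gjc1 did not). Capitals mark 4 motifs searched on both strands, the TATA box (TATAAA), the GC box (GGGCGG), the CCAAT box (CCAAT) and the AP-1 motif (TGANTCA). The first pair is Gja4 (chr4:127314040-127314289, minus strand) and Gja5 (chr3:97032152-97032401, plus strand), both higher in the limbus, and the second is Gja1 (chr10:56377050-56377299, plus strand) and Gjb5 (chr4:127358165-127358414, minus strand), both higher in the cornea.
Gja4: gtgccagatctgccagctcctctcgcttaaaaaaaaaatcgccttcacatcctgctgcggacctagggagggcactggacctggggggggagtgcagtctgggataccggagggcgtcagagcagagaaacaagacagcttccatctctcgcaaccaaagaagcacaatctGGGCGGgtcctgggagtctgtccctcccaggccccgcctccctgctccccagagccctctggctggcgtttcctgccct
Gja5: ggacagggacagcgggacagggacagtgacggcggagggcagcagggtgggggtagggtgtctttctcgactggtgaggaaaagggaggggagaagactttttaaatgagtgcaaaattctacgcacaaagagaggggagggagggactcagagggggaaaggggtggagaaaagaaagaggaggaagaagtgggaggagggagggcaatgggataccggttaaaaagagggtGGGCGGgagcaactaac
Gja1: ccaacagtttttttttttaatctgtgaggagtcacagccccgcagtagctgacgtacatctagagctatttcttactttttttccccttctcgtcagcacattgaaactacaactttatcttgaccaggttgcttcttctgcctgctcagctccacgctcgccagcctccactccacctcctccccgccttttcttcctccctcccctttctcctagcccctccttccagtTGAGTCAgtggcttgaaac
Gjb5: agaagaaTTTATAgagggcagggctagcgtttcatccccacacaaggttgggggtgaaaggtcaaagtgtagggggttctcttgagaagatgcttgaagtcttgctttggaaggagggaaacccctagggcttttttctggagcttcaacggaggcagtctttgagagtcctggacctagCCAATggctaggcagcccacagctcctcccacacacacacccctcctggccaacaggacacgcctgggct

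Gja4 and Gja5 each had 1 GC box, 79 and 17 bases before the RefSeq start, a motif held by 32.7% of 32851 mouse promoters of this length. Gja1 had an AP-1 motif 19 bases before its start, which 6.75% of promoters hold. Gjb5 had a CCAAT box at 70 bases, found in 33.8% of promoters, and TATAAA on the reverse strand at 243 bases, found in 12.4%. Gjb2, not printed, had GC boxes at 211 and 126 bases, the second on the reverse strand, so the GC box did not separate the genes by direction. Gjb6 held none of the 4. A match is a description of the sequence only.

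Genes on the same chromosome did not always go together. Gja4 and Gjb5 both lie on chromosome 4, Gja4 was higher in the limbus and Gjb5 in the cornea, and the log2 ratio of Gja4 exceeded that of Gjb5 by 2.89 (2.24 to 3.58). On chromosome 14, Gjb2 and Gjb6 are 18.6 kb apart and a difference between their ratios was not detectable, as given above.

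Levels of different genes were compared as normalized reads per kilobase of all annotated exons joined. In the cornea Gja1 (1003) and Gjb2 (999.5) led and were not separated beyond counting error, at a ratio of 1.003 (0.96 to 1.05), ahead of Gjb5 (409), Gjb6 (88.3), Gja4 (14.9), Gjc1 (1.16) and Gja5 at 0. In the limbus Gjb2 led (819), followed by Gja1 (383), Gjb5 (277), Gja4 (74.8), Gjb6 (68.4), Gjc1 (10.5) and Gja5 (8.46). Here Gja4 and Gjb6 were not separated beyond counting error (ratio 1.09, 0.86 to 1.39), nor were Gjc1 and Gja5 (1.25, 0.82 to 1.89). The order in the limbus, and the near tie of Gja1 and Gjb2 in the cornea, depend on the length used. The joined exons of Gja1 span 10257 bases and its longest transcript 3889, and with the longest transcript or the coding sequence Gja1 stood first in the limbus and Gjb6 ahead of Gja4.

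All 20 connexin genes of the mouse together had 16612 corneal and 9063 limbal reads, a log2 ratio of −0.78 (−0.82 to −0.74). Without Gja1 the sums were 5981 and 5259, a log2 ratio of −0.09 (−0.14 to −0.04). Scaled to total reads these ratios were −0.57 (−0.61 to −0.54) with Gja1 and 0.12 (0.06 to 0.17) without it, so the sum without Gja1 changed sign with the scaling while the sum with Gja1 did not. The share of Gja1 in all connexin reads was 64.0% in the cornea, against 42.0% in the limbus. Per kilobase its share was 26.2% and 12.7% with all exons joined, and 47.8% and 27.1% with the longest transcript. The 3 vascular members together held 0.421% of the connexin reads per kilobase in the cornea, against 3.10% in the limbus.

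**Figure D3:**
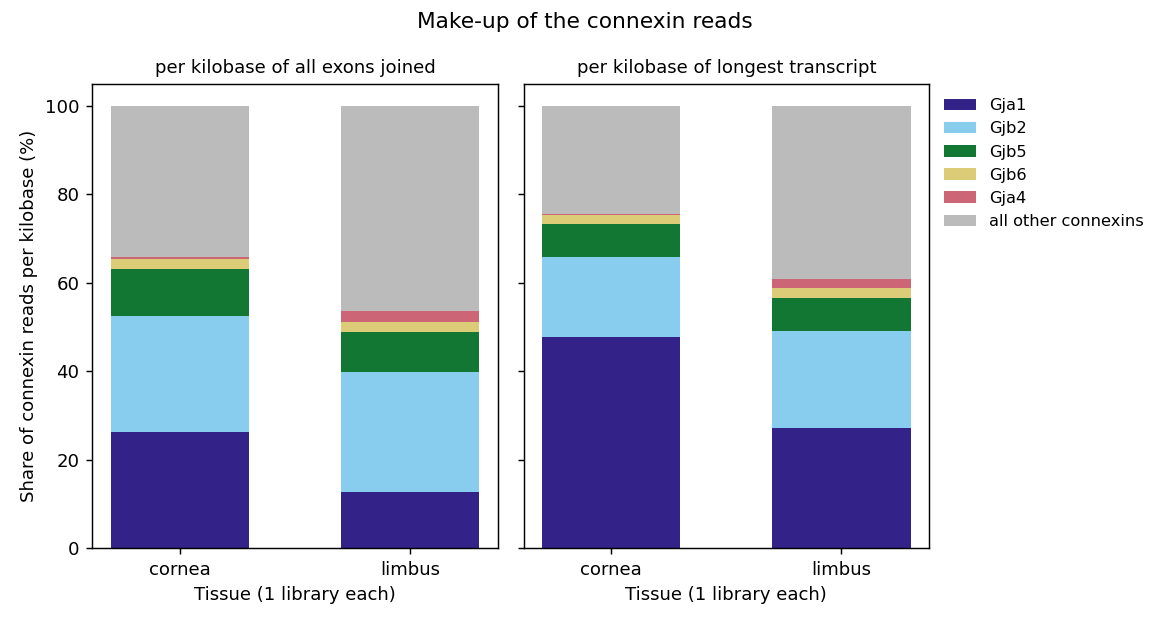
Share of each gene in the connexin reads per kilobase (%) in cornea and limbus, 1 library each, with all exons joined (left) and the longest transcript (right). The share of Gja1 is smaller in the limbus in both panels, 12.7% against 26.2% on the left, and the red band of Gja4 is wider there.

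Of the 13 other connexins, 7 had more than 3 reads in either library, with a median log2 ratio of 0.83, and none was higher in the cornea at 2-fold. Gjb1, a connexin of Schwann cells, had 1 corneal and 27 limbal reads, at least 2.96-fold higher in the limbus. Gjc3, also known from myelinating glia, had 1 and 18 reads, at least 1.87-fold higher. Gja3, a connexin of lens fibres, had 0 and 3 reads, which is at the floor in both libraries. Gjd2 had 0 and 4 reads, which does not give a detectable difference.

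Cell type markers differed between the libraries as well. The summed normalized reads of 10 vascular endothelial genes were 319 in the cornea and 4701 in the limbus, 9 of 10 at 2-fold or more. Within the cornea Pecam1 (6 reads) and Cdh5 (3 reads) were near 0, while Kdr had 170. Per 1000 reads of this list the cornea held 78.8 reads of Gja4 and the limbus 26.8, a log2 difference of −1.55 (−2.20 to −0.86). Kdr made up 51.5% of the reads of the list in the cornea. Of 8 arterial markers, Sox17, Dll4 and Gkn3 had 0 reads in the cornea, like Gja5, and 5 of 8 were higher in the limbus at 2-fold. Their sum, 2128 and 2487, is mostly Efnb2 and Unc5b, with log2 ratios of 0.06 and −0.19. Per read of the arterial list the difference of Gja4 had the opposite sign, 2.10 (1.47 to 2.78), so its direction relative to vessel markers depended on the list. Of 10 smooth muscle and pericyte genes, 8 were higher in the limbus at 2-fold, beside Gjc1. Their sum was 5942 and 6936, of which Notch3, itself higher in the cornea at a log2 ratio of −0.69, made up 93.7% in the cornea and 49.9% in the limbus. Per read of that list Gjc1 was higher in the limbus by 2.96 (1.74 to 4.47) on the log2 scale. The part of vessel content in the values of Gja4, Gja5 and Gjc1 was not tested.

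Corneal epithelial markers (7 of 8 listed were in the table) summed to 2516599 normalized corneal and 1088045 limbal reads, with 3 of 7 higher in the cornea at 2-fold and 1, Krt14, higher in the limbus. Krt12, the keratin of differentiated corneal epithelium, had a log2 ratio of −2.19. Per 1000 reads of this list the cornea held 4.09 reads of Gja1 and the limbus 3.61, a log2 difference of −0.18 (−0.23 to −0.12). For Gjb2 the difference per list read was 0.92 (0.84 to 1.01), for Gjb5 0.65 (0.47 to 0.82) and for Gjb6 0.84 (0.55 to 1.13). Krt12, Aldh3a1 and Krt5 made up 91.7% of this list in the cornea and 87.6% in the limbus by reads. Keratocyte markers summed to 72900 and 94837, and per read of that list Gja1 was lower in the limbus by 1.77 on the log2 scale (interval −1.82 to −1.71). Dcn and Col1a1, at log2 ratios of 0.64 and 1.25, made up 48.9% and 33.4% of its limbal reads. The 8 markers were split, with intervals excluding 0 for 4 on the limbal and 2 on the corneal side. Kera (−2.99) and Aldh1a1 (−2.16) had lower ratios than Gja1 (−1.39), so the sign depended on the marker. Conjunctival markers summed to 123830 and 320689. Per read of the conjunctival list Gjb2 and Gjb6 were lower in the limbus, by −1.66 (−1.75 to −1.57) and −1.74 (−2.03 to −1.45), so their direction too depended on the list. Of its 6 genes with more than 3 reads, 5 were higher in the limbus at 2-fold. Krt6a, at a log2 ratio of 0.05, was not, and it made up 69.4% of the list in the cornea and 27.7% in the limbus by reads. The part of these cell types in the values of the epithelial connexins was not tested.

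**Figure D4:**
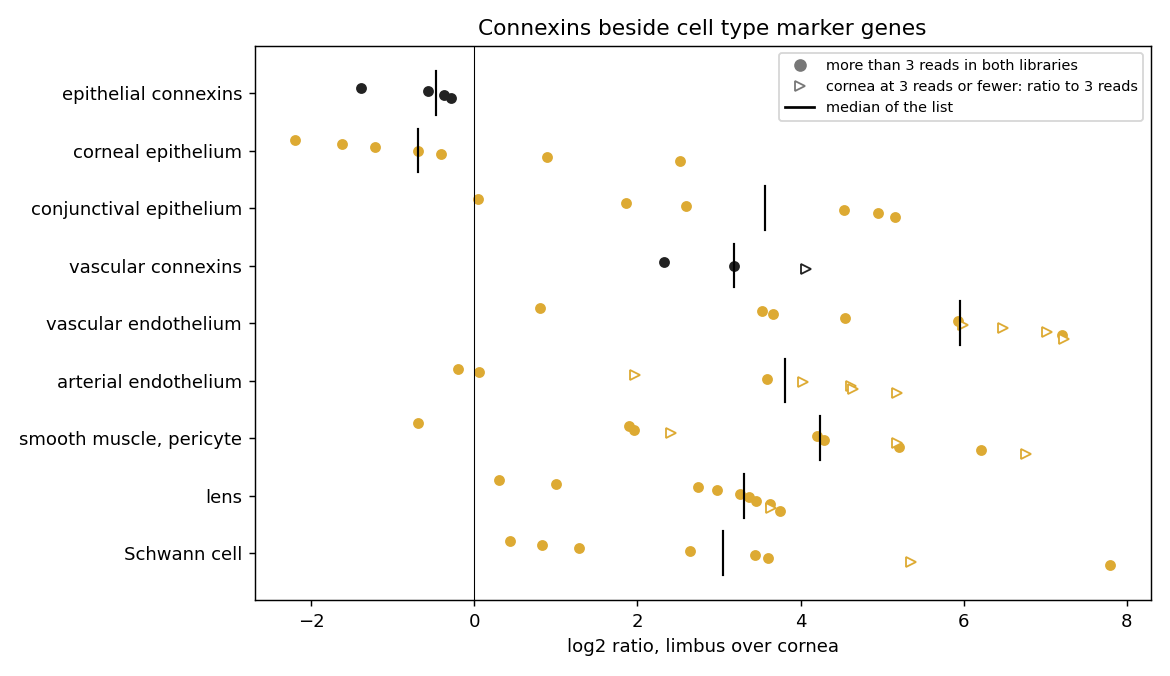
Ratio of limbus over cornea (log2) of each gene with more than 3 reads in either library, for the connexins (black) and for lists of cell type markers (yellow), with the median of each list as a bar. Open triangles are genes with 3 reads or fewer in the cornea, drawn at the ratio to 3 reads. The vascular connexins lie within the range of the vessel markers, but also within that of the Schwann cell markers (0.44 to 7.79). The corneal epithelial range (−2.19 to 2.52) is wide and holds the epithelial connexins as well as Gja4 (2.33). Lying within a range therefore does not assign a connexin to a cell type.

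Lens genes were higher in the limbus in 8 of 10 cases at 2-fold, their sum being 3766 and 16812 normalized reads, while the lens fibre connexin Gja3 had 3 reads or fewer in both libraries. Schwann cell markers were higher in 6 of 8 cases, beside Gjb1 and Gjc3. Of keratins used to mark the limbus, Krt15 had a log2 ratio of 3.32 and Krt14 of 2.52, which goes with the tissue labels.

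Proteins that carry connexins to the junction or hold them there lay on both sides. Of 14 such genes in the table, 2 were higher in the limbus at 2-fold and none in the cornea, and the interval excluded 0 for 6 on the limbal and 7 on the corneal side. The median log2 ratio was 0.01. The most abundant were Ctnnb1 (beta-catenin), at −0.36 with 19010 and 13895 reads, and Hspa5 (an endoplasmic reticulum chaperone), at −0.05 with 11590 and 10494. The largest ratios were those of Cdh2 (N-cadherin), with 17 and 98 reads and a log2 ratio of 2.62 (1.87 to 3.46), and Dbn1 (drebrin, a partner of Gja1), with 38 and 119 reads and 1.74 (1.205 to 2.31).

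**Figure D5:**
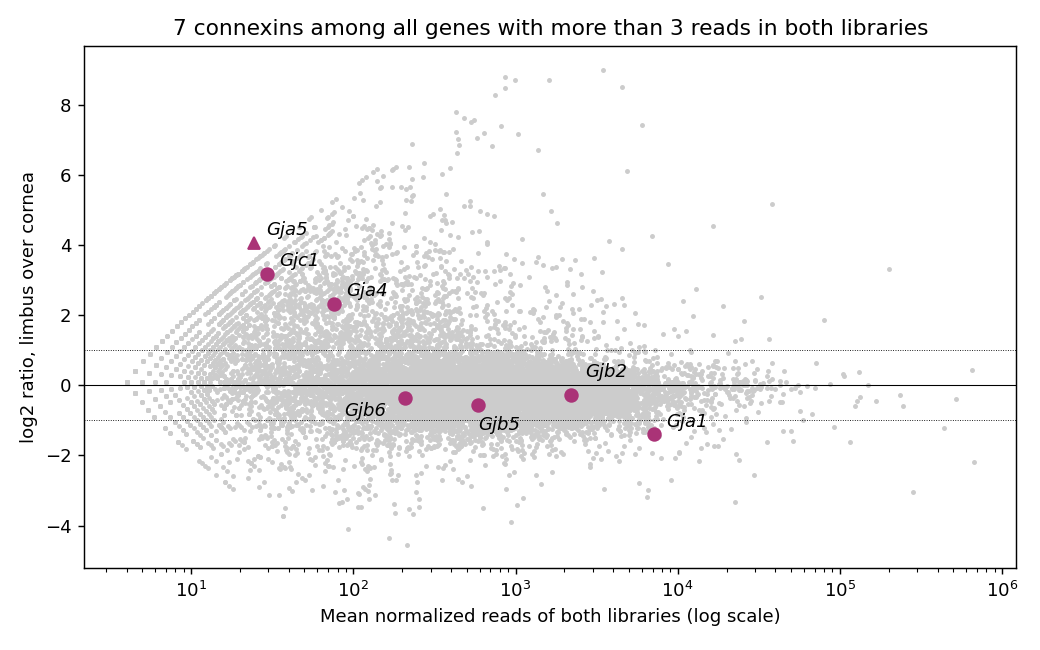
Mean normalized reads of both libraries (log scale) against the ratio of limbus over cornea (log2) for the 13860 genes exceeding 3 reads in each library (grey), with the 7 connexins in purple. Gja5, at 0 reads in the cornea, is a triangle at the ratio to 3 reads, and dotted lines mark 2-fold. Gja1 lies below the lower dotted line at −1.39, Gjb2, Gjb5 and Gjb6 lie between the lines, and Gja4, Gjc1 and Gja5 lie above the upper one.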

How the data were processed

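Pooled limbal rims and corneal buttons were sequenced as stranded total RNA on a NextSeq. Per the methods, the authors used CLC Genomics Workbench to trim adaptors and map to GRCm38 (mm10), with trimmed mean of M-values normalization. In the 1 table that the authors deposited, each gene has a mean normalized signal over both libraries, a log2 fold change, its standard error and p-values. The label of that table names the program DESeq, which the methods do not mention, so its means may not rest on trimmed-mean scaling. Trimmed-mean scaling of the reads recovered below shifted every log2 ratio by 0.02. The p-values were not used, and the authors' log2 values served only to tell which reads lie behind each mean. Of 40904 rows, 17484 name no gene and were left out. The accessions in the table belong to their symbol for 2 of 18029 genes (0.0111%), so symbols were used.

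For all 17442 genes above 0, the mean is a whole number of reads of 1 cornea and 1 limbus library (tolerance 0.02), 109 cornea reads weighing as much as 102 limbus reads. The mean allowed 1 pair of reads for 6143 genes and several for 11299. The pair that met the authors' standard error best was taken, and 17411 genes were met to within 0.001. Read numbers are therefore derived, not a count table. Where pairs met it alike (189 genes, none of the 7), the pair that missed least among those with the dispersion of like genes (within a factor of 3 of 50 genes) was taken. That rule was set after values had been seen and replaced the pair of nearest dispersion, which gives other reads for 6 genes. On simulated data of this comparison all 17068 pairs were found. These data were made with the same model that the recovery assumes, so they cannot show that the model fits the deposited values.

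Ratios are of reads divided by size factors (1.03 and 0.967), with exact 95% Clopper-Pearson intervals for counting error only, as reads are not independent molecules. Where a library held at most 3 reads, 3 were assumed and a lower bound is given. Python 3.11.15, numpy 2.4.6, pandas 2.3.3, scipy 1.17.1 and matplotlib 3.10.9 were used, with exons and positions from GENCODE and promoters from RefSeq. Members and gene lists were chosen with earlier results of these data known. Named by rule are all 7 genes, other connexins above 3 reads, and of each other list the 2 genes with the most reads and the 2 with the largest ratio at a mean of at least 10. Gja3 and marker genes beyond these were named after their values were seen. Values of some listed genes are not reported here.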

Additional observations from a re-analysis of the deposited data

How the results depend on the processing

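Of the values recomputed under other settings, 49 stayed within their interval or count range, 17 moved and 1 reversed. The reversed value is the summed reads of all connexins but Gja1, whose log2 ratio of −0.09 became 0.12 when scaled to total reads, and that recomputation was chosen after seeing the data. Scaling to total reads gave log2 ratios of −1.18 for Gja1, −0.081 for Gjb2 and −0.36 for Gjb5, and a median of −0.081, while trimmed-mean scaling shifted all by 0.02. The second best pair of reads gave −8.84 for Gja1, −1.71 for Gjb2, −2.67 for Gjb5 and −2.14 for Gjb6, a median of −1.71 and 4 genes higher in the cornea at 2-fold. Those pairs missed the standard error at least 1051 times as far as the pairs used, and Gja4, Gja5 and Gjc1 have no second pair. A mean of at least 50 left 5 genes and 1 of them higher in the limbus. The interval in place of 2-fold gave 4 higher in the cornea. In the limbus 3 of 7 genes kept their rank with the coding length, and 3 with the longest transcript.

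The first rule for pairs that fitted alike, run again as an alternative chosen after seeing the data, changed no value of the 7 genes. It changed Krt19 from 4.53 to 3.88, Krt4 from 5.16 to 3.52 and Krt12 by less than 0.01, and so the conjunctival median from 3.56 to 3.06. No paired analysis was possible because the table holds no values per numbered sample, and leaving out samples was not run for the same reason. Depth limits Gja5 and Gjc1 most.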

Other observations

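Pannexins form channels related in shape but do not usually make gap junctions. Panx1 had 338 corneal and 362 limbal reads, a log2 ratio of 0.19 (−0.02 to 0.41). Panx2 had 2 and 13 reads, at least 1.27-fold higher in the limbus, and Panx3 was listed at 0.

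Of 16 kinases and ubiquitin ligases that act on connexins, none was higher in the cornea at 2-fold. Their median log2 ratio was −0.03. The ligase Nedd4, which binds Gja1, had the most reads (11067 and 9558) at −0.12, and Mapk3 had 3960 and 4606 at 0.31. Wwp1, a related ligase, was 1.73-fold higher in the cornea at −0.79.

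Remaining marker lists were skeletal muscle (477 and 12204 summed normalized reads, cornea then limbus), melanocyte (337 and 1724), immune cell (6363 and 10501), corneal endothelium (20643 and 27616) and epidermis (903 and 760).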
